A study of Mus musculus with 6 samples.

Results

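The class I TRIM proteins are 6 E3 ubiquitin ligases, encoded by Trim9, Trim67, Mid1, Mid2, Trim36 and Trim46, that carry a COS box, a short stretch which follows the coiled coil and binds microtubules. Their transcripts were read in adult retinas of Trim9 KO mice and WT littermates on Affymetrix mouse genome arrays. The genes were chosen by name, and every probe set annotated to exactly 1 of them was used, which gave 13 of the 45037 probe sets on the arrays and 6 of the 18193 genes that a probe set names. A probe set is a group of short oligonucleotides that together read 1 transcript. The series holds 3 Trim9 KO and 3 WT retina samples with 1 array each, hybridized with amplified, biotin-labelled RNA.

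Trim9 KO mice lacked exon 1 of Trim9 after excision by a Cre under the CMV promoter, which is active in most tissues, so that the deletion was not limited to the retina. WT mice were littermates that kept the exon. Both groups were grown to maturity, and no treatment or age in days is given. The sample labels describe adult retina throughout, except for a note on dissection from embryos that conflicts with them. The labels do not say whether the replicates came from separate litters, and p-values measure the spread between these 6 arrays only.

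TRIM proteins share a RING finger, which recruits the ubiquitin-loaded enzyme, followed by B-boxes and a coiled coil. In the class I members the COS box, a fibronectin type III domain and a SPRY domain come after these, and the COS box brings the ligases to microtubules. The class is known from neurons and from embryonic midline tissues. TRIM9 and its closest relative TRIM67 act in axon guidance by netrin-1 in the mouse cortex, TRIM46 organizes microtubules at the start of the axon, and mutations of MID1 cause Opitz G/BBB syndrome in humans.

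The deposited values are linear intensities, scaled by the authors so that the trimmed mean of each array was 1500. The array medians still ranged from 252 to 808 in Trim9 KO and from 218 to 676 in WT. Intensities were raised by 16, taken to log2 and fitted in limma, and p-values were adjusted over all 45037 probe sets by the Benjamini-Hochberg method. Log2 fold changes are given as Trim9 KO over WT. Their median across the array was 0.18 (0.015 after quantile normalization and -0.14 with equal array medians). Among the 22518 probe sets brighter than the median it was 0.00090, so that the shift lay in the dimmer probe sets. Of the 13 class I probe sets, 9 were among the brighter. The values of single genes stand against these medians. One array stood apart: the correlations of Trim9 KO replicate 1 with the others were 0.47 to 0.52, whereas the best match of every other array reached 0.68 to 0.89. Across the array limma called 0 probe sets at an adjusted p of 0.05 (0%), and 1296 had an unadjusted p under 0.05 (2% of all probe sets higher and 0.877% lower in Trim9 KO), so that no class I gene is called changed below and all differences are given as measured values with their intervals. Of 24 measured markers of 7 retinal cell types, 21 were brighter than the median of all probe sets, as were 7 of 19 markers of microglia, optic nerve, vessels, pigment epithelium, lens, blood and muscle, among them all 3 of the pigment epithelium.

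Trim9, the deleted gene, is transcribed from chromosome 12. The 250 bases before its annotated start are shown because the KO allele lacks exon 1, at the start of the gene. The sequence is that of RefSeq on GRCm38.p6, chr12:70347615-70347864, minus strand, and capitals mark the E-box letters CANNTG, the motif bound by basic helix-loop-helix factors such as ATOH7, whose expression led the study to Trim9.
Trim9 upstream bases: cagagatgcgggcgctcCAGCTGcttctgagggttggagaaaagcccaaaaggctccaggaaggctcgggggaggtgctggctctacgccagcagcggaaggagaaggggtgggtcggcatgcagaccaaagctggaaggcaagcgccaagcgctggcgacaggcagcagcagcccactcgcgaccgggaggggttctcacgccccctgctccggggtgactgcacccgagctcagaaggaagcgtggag
The motif reads the same on both strands, occurred 1 time here, at position 18 from the 5′ end, and was present in 66.2% of the 32851 windows of the same length. Binding was not measured in this series.

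The 4 Trim9 probe sets had lower means in Trim9 KO retinas than in WT retinas. The brightest, 1443989_at, read 1498, 497 and 367 on Trim9 KO replicates 1, 2 and 3, against 4226, 1767 and 1667 on WT replicates 1, 2 and 3. Every KO array lay below every WT array, and the highest KO array was near the 2 lower WT arrays. The log2 means were 9.38 ± 1.04 in Trim9 KO and 11.19 ± 0.75 in WT (SD, n = 3 each), so that the log2 fold change was -1.81 with a standard error of 0.99 and a 95% interval of -3.98 to 0.37 (limma adjusted p = 0.999). The two-sided exact permutation p was 0.1, the smallest that 3 arrays against 3 allow.

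The next 3 probe sets of Trim9 differed from each other in how far the genotypes separated. Probe set 1434595_at read 35.9, 1414 and 759 in Trim9 KO, against 2583, 1526 and 2472 in WT, a log2 fold change of -2.48. The groups did not overlap, but the size rested on Trim9 KO replicate 1, the array that stood apart, and was -1.03 without it. Probe set 1434249_s_at read 1367, 890 and 560 in Trim9 KO, against 2746, 1372 and 923 in WT (log2 fold change -0.77). Its highest KO value lay just under the WT value of replicate 2 and above that of replicate 3. Probe set 1454886_x_at read 1959, 412 and 564 in Trim9 KO, against 697, 1075 and 2069 in WT (log2 fold change -0.58), so that 1 KO array was nearly as bright as the brightest WT array. When an array was left out, the log2 fold change was -1.13 (WT replicate 3) to -0.35 (WT replicate 1) for 1434249_s_at and -1.24 to -0.13 for 1454886_x_at, the widest values of the second being those without Trim9 KO replicate 1 (-1.24) and replicate 2 (-0.13). The suffix x marks oligonucleotides that may also bind other transcripts, and these last 2 probe sets were annotated through the same transcript and are not independent readings. Thus 2 of 4 Trim9 probe sets had all KO arrays below all WT arrays, where 2.76% of all probe sets did (2.89% of the brightest probe sets of each gene). These 2 were also lower by 2-fold or more, as were 14.4% of all probe sets. Which exons the probe sets read was not determined here, so they check the genotype labels only in part, and a transcript without exon 1 could still bind to them.

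Markers of cell types were read on the same arrays. The summed signal of 4 cone markers was 21222 to 34920 in Trim9 KO and 36407 to 74412 in WT, and that of 2 horizontal cell markers was 176 to 454 in Trim9 KO and 732 to 923 in WT. Summed signals did not overlap in these 2 of 14 cell type lists. Of single probe sets, 2.76% had all KO arrays lower and 5.16% all KO arrays higher, and no such share was computed for sums. Taken singly, each of the 6 markers overlapped between the genotypes, and both horizontal cell markers were dimmer than the median of all probe sets. In the other lists, Nefm (ganglion cells) and Mbp (optic nerve) were lower on every KO array. Pou4f1 (ganglion cells), Tfap2a (amacrine cells) and Pecam1 (vessels) were higher on every KO array, and the remaining markers overlapped. In whole retina, fewer cells of a type and less RNA per cell cannot be told apart. The 3' signal of Actb exceeded the 5' signal by 1.49, 6.50 and 6.42 on the log2 scale on Trim9 KO replicates 1, 2 and 3 and by 4.30, 3.28 and 1.77 on the WT arrays. The same measure for Gapdh was 6.91, 7.17 and 7.29 on the Trim9 KO arrays and 8.10, 6.28 and -0.14 on the WT arrays, so that the 2 genes did not order the arrays alike. The summed signal of 3 pigment epithelium markers was 323945 to 1355272 in Trim9 KO and 69627 to 470666 in WT, with overlap. The part of cell types and of RNA quality in the Trim9 difference was not tested.

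**Figure D1:**
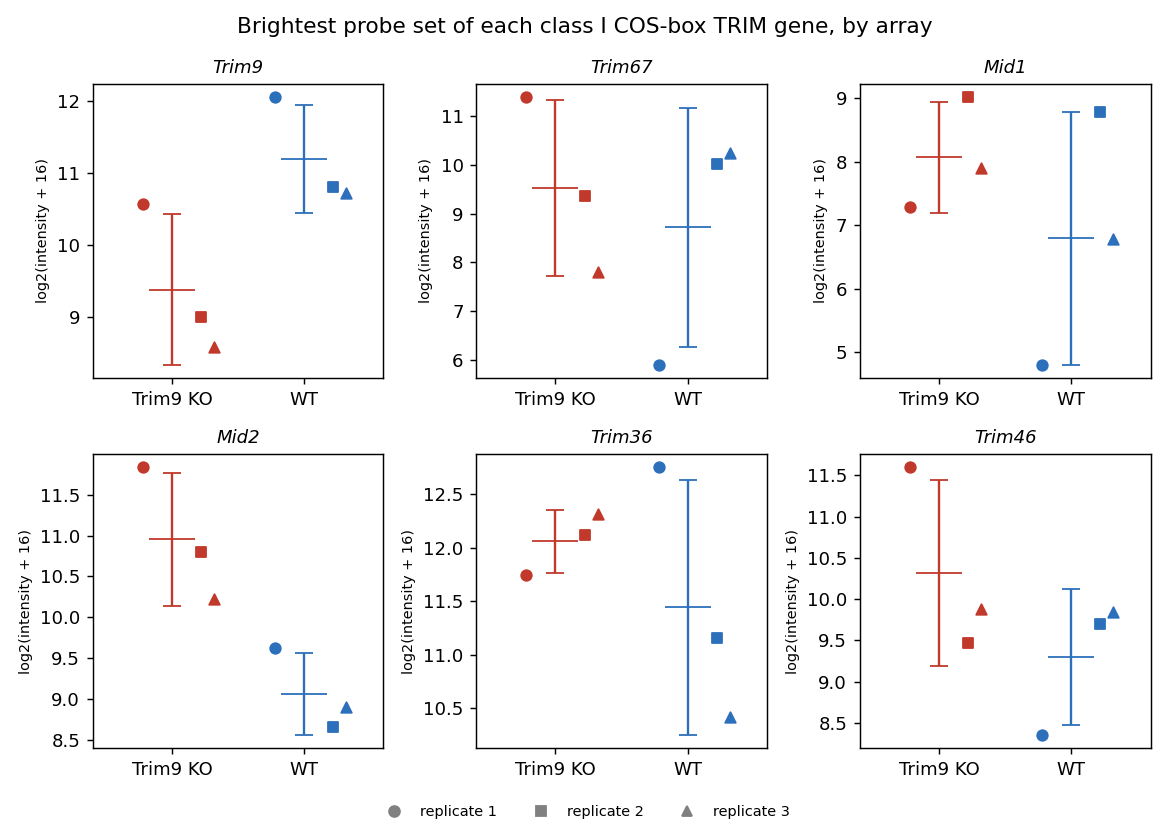
Log2(intensity + 16) (y axes) of the brightest probe set of each class I gene in Trim9 KO (red, left) and WT (blue, right) retinas, with 1 point per array, shaped by replicate number; the long bar is the mean and the capped line is the SD. Trim9 lies lower on every KO array and Mid2 higher on every KO array, while the genotypes overlap for the other 4 genes.

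Whether relatives of Trim9 are higher in its absence was the question behind the comparison of the other 5 genes. All 9 of their probe sets had a higher mean in Trim9 KO retinas, with log2 fold changes of 0.013 to 1.89 and a median of 0.81, where 56.4% of all probe sets had a higher mean and the median was 0.18. Of the 9, 5 were among the probe sets brighter than the median, whose median log2 fold change was 0.00090. After quantile normalization, and likewise with equal array medians, 7 of the 9 were higher and 2 lower, those 2 being dim probe sets of Mid1 and Mid2. At least 2-fold higher were 4 of the 9, where 22.9% of all probe sets were. Only 1 of the 9, for Mid2, had all KO arrays above all WT arrays, where 5.16% of all probe sets did. The 95% interval of each of the 9 included 0, and none had an unadjusted p under 0.05 in limma.

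Trim67, the closest relative of Trim9 and also a neuronal ligase, is read by 1 probe set. It gave 2667, 643 and 206 in Trim9 KO and 43.6, 1020 and 1187 in WT. The brightest and the dimmest of the 6 values were both on arrays of replicate 1, of opposite genotype, and on the other 4 arrays both KO values lay below both WT values. The log2 fold change was 0.80 (standard error 1.37, 95% interval -2.21 to 3.81, limma adjusted p = 0.999, exact permutation p = 0.7). Leaving out Trim9 KO replicate 1 gave -0.14, and leaving out WT replicate 1 gave -0.61. Trim9 KO replicate 1 had the highest median intensity of the series (808), and WT replicate 1 the lowest (218). The log2 fold change was 0.89 after quantile normalization and 0.48 with equal array medians, and the part of array scale was not tested. The 95% interval of the main fit reaches from a 4.63-fold lower to a 14.1-fold higher signal, which includes a change of the size measured for Trim9 in either direction.

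Mid1, which binds the alpha4 protein and through it brings the catalytic subunit of the phosphatase PP2A to degradation, is read by 3 probe sets, each dimmer than the median of all probe sets. The brightest, 1422055_at, read 139, 503 and 223 in Trim9 KO, against 11.9, 426 and 93.9 in WT. WT replicate 1 was lowest, and WT replicate 2 lay within the range of the KO arrays. Its log2 fold change was 1.28 (standard error 1.16, limma adjusted p = 0.999, exact permutation p = 0.4) and 0.28 without WT replicate 1. The second, 1438239_at, read 39.0, 346 and 265 in Trim9 KO and 174, 45.2 and 342 in WT (log2 fold change 0.14, but -0.29 after quantile normalization and -0.18 with equal array medians). The third, 1443666_at, read 244, 24.6 and 9.94 in Trim9 KO and 7.08, 57.7 and 13.8 in WT, a log2 fold change of 0.81 that was -0.19 without Trim9 KO replicate 1. No pair of the 3 probe sets ordered the arrays alike, and 3 of the 6 values of the third were below the 16 units added before the logarithm.

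Mid2, the microtubule-bound relative of Mid1, had the largest positive difference among the brightest probe sets of the 6 genes. Probe set 1422216_at read 3640, 1768 and 1182 in Trim9 KO, against 771, 388 and 462 in WT. The dimmest KO array was brighter than the brightest WT array. The log2 means were 10.95 ± 0.82 in Trim9 KO and 9.06 ± 0.50 in WT (SD, n = 3 each), so that the log2 fold change was 1.89 with a standard error of 0.95 and a 95% interval of -0.18 to 3.97 (limma adjusted p = 0.999). The exact permutation p was 0.1, the smallest possible here. The log2 fold change was 1.45 to 2.26 when an array was left out, 2.09 after quantile normalization and 1.57 with equal array medians. After the array medians were subtracted, the lowest KO array (1.90) still lay above WT replicate 1 (1.75), by a small margin.

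The second Mid2 probe set did not show this. Probe set 1450537_at, annotated through the same transcript, read 62.9, 30.3 and 201 in Trim9 KO and 135, 26.9 and 103 in WT. Its log2 fold change was 0.013 (95% interval -2.24 to 2.26, exact permutation p = 1), -0.18 after quantile normalization and -0.31 with equal array medians. It was dimmer than the median of all probe sets, whereas 1422216_at was brighter. The mean of both probe sets gave a log2 fold change of 0.95 for Mid2. It was 1.89 for 1422216_at and 0.013 for 1450537_at, so that the difference depended on which probe set was read.

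Mid1 and Mid2 lie on the X chromosome, and the arrays differed in sex. Xist, whose transcript coats the inactive X of female cells, was at 15.2 on Trim9 KO replicate 3 and at 15.2 on WT replicate 3 (log2 scale), against 6.75 to 9.79 on the other 4 arrays, on which the Y-linked gene Eif2s3y was high (10.7 to 11.7, against 4.92 and 4.31). Each genotype thus had 1 array with high Xist. Between the 2 arrays with high Xist, Trim9 KO minus WT was 1.32 for Mid2 and 1.12 for Mid1, and between the means of the other 4 arrays it was 2.18 for Mid2 and 1.35 for Mid1, all on the log2 scale. Trim9 was lower in the KO within both sets, by -2.13 and -1.64. Trim67 differed in sign between them (-2.44 with high Xist, 2.42 among the others), as did Trim36 (1.90 and -0.025), and Trim46 was at 0.039 and 1.50. With 1 array per genotype in the smaller set, the difference between the sets was not tested.

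Trim36, known in mouse sperm for a part in the acrosome reaction, is read by 2 probe sets. The brighter, 1441969_at, read 3411, 4436 and 5074 in Trim9 KO, against 6892, 2272 and 1351 in WT. The KO arrays lay close together and between the WT arrays, of which WT replicate 1 was the brightest of all 6. The log2 fold change was 0.62 (standard error 0.98, limma adjusted p = 0.999, exact permutation p = 0.5), and leaving out an array moved it between 0.10 (WT replicate 3) and 1.27 (WT replicate 1). The dimmer, 1455837_at, read 1802, 1467 and 586 in Trim9 KO, against 884, 269 and 227 in WT, with a log2 fold change of 1.57 (95% interval -0.63 to 3.76). In this probe set WT replicate 1 lay among the KO arrays, and without it the log2 fold change was 2.16.

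Trim46, which bundles microtubules with the same polarity in the proximal axon, is read by 1 probe set, 1460568_at. It gave 3086, 691 and 928 in Trim9 KO, against 311, 818 and 903 in WT. As for Trim67, the brightest value was on Trim9 KO replicate 1 and the dimmest on WT replicate 1, and the other 4 arrays overlapped. The log2 fold change was 1.02 (standard error 1.01, limma adjusted p = 0.999, exact permutation p = 0.4). It was 0.37 without Trim9 KO replicate 1 and 0.54 without WT replicate 1.

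**Figure D2:**
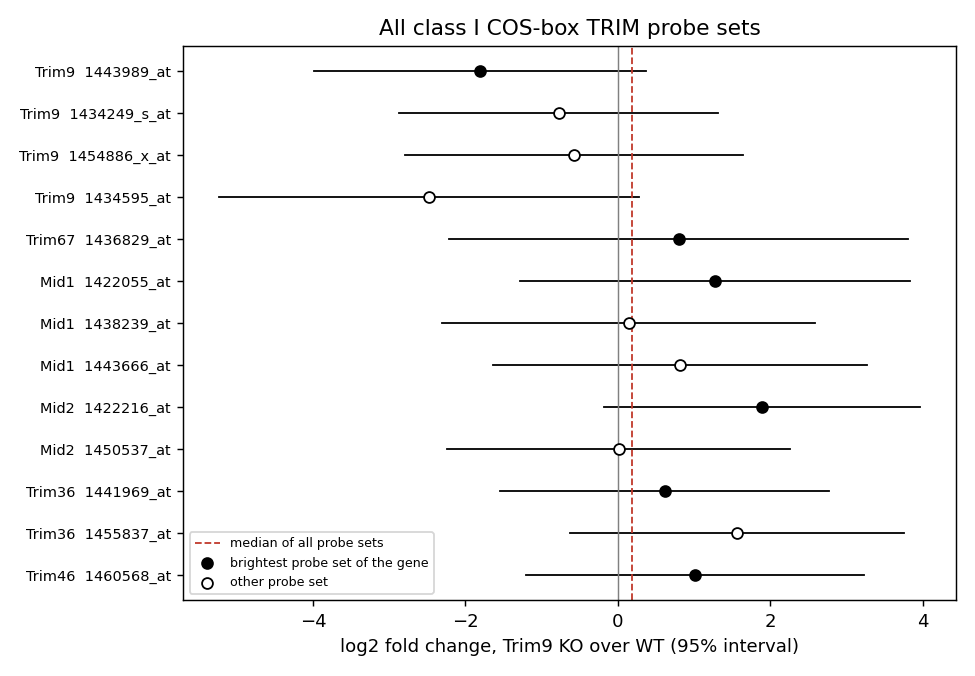
Change in log2 signal between Trim9 KO and WT, as KO over WT (x axis), of all 13 class I probe sets (y axis), with the 95% interval from limma; filled points are the brightest probe set of a gene and open points its others, with a dashed red line at 0.18, the median across the array. The 4 Trim9 points lie below 0 and the 9 others above it, and each interval includes 0. Among probe sets brighter than the median, the median change was 0.00090.

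Scaling of the arrays bears on every value above, so the signal of Trim9 was also set against that of each relative on the same array, a comparison added after the data were seen. The difference between 2 probe sets on an array has no meaning as a level, since each has its own brightness, but its change with genotype is free of the scale of the array. Each gene was read by its brightest probe set, which for Mid2 was 1422216_at. The second Mid2 probe set, 1450537_at (log2 fold change 0.013), was not set against Trim9. Trim9 minus Mid2 was -1.57 ± 0.27 in Trim9 KO and 2.13 ± 0.31 in WT (log2, SD, n = 3 each), a change of -3.70. It was -1.27, -1.80 and -1.64 on Trim9 KO replicates 1, 2 and 3, and 2.43, 2.14 and 1.82 on the WT replicates, a smaller spread within each genotype than either signal had alone. Trim9 minus Trim46 was -0.93 ± 0.43 in Trim9 KO and 1.89 ± 1.57 in WT, and Trim9 minus Trim36 was -2.68 ± 1.33 in Trim9 KO and -0.25 ± 0.51 in WT. For these 3 genes the KO arrays were the lowest 3 of the 6 (exact permutation p = 0.1 for each, 0.17 after Benjamini-Hochberg adjustment over 5 comparisons). For Mid2 that order was fixed in advance, since Trim9 was lower and Mid2 higher on every KO array, and its p-value is no further support. The 5 comparisons share the same Trim9 values and are not independent of each other. For Trim67 and Mid1 the genotypes overlapped (exact permutation p = 0.3 and 0.2, adjusted p = 0.30 and 0.25). Measured against Trim9 in this way, 34.1% of all genes had KO arrays below WT arrays without overlap, 96.6% had a negative change, since Trim9 itself was lower, and 5.45% of genes changed at least as much as Mid2. The counts of 3 of 5 without overlap and 5 of 5 negative stand against those shares.

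**Figure D3:**
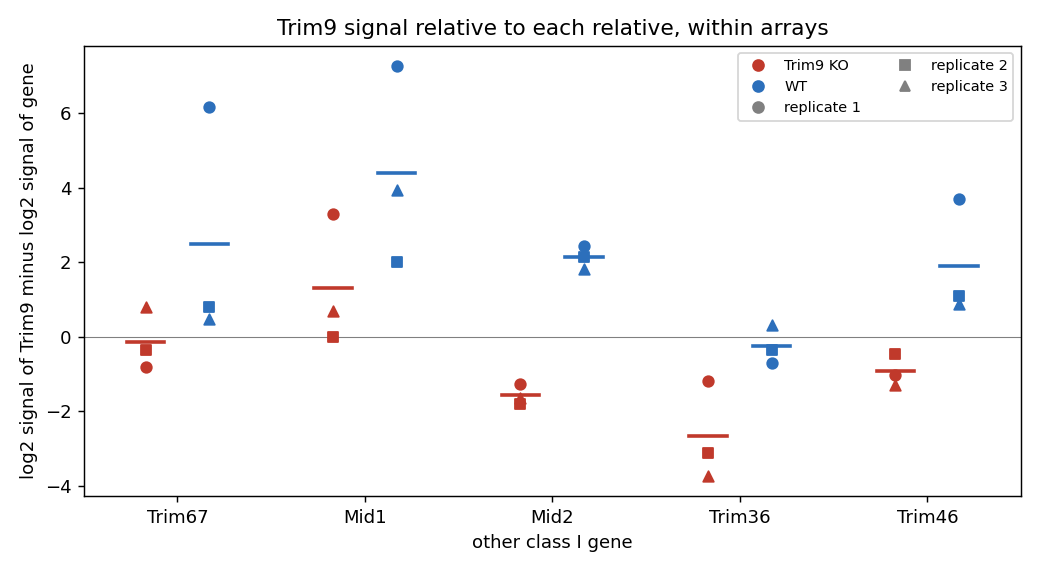
Log2 signal of Trim9 minus log2 signal of each of the other 5 class I genes on the same array (y axis), in Trim9 KO (red, left of each pair) and WT (blue, right), with 1 point per array, shaped by replicate number, and a line at the mean. The genotypes do not overlap for Mid2 (means -1.57 and 2.13), Trim36 and Trim46. Each gene is read by its brightest probe set only.

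The fold changes of the 6 genes were recomputed under 16 alternatives, of which 6 leave out 1 array each. They are those of the brightest probe set, except where the probe sets of a gene were averaged. The brightness filter, the other variance model and a block by replicate number cannot alter a fold change. Nor can averaging for Trim67 and Trim46, each read by 1 probe set, so these directions were set in advance. Trim9 kept a negative log2 fold change in all 16 (-2.40 to -1.38) and Mid2 a positive one in all 16 (0.95 to 2.26). Mid1 was positive in the 15 that could be run (0.28 to 2.28), and Trim46 in all 16 (0.33 to 1.50). The dimmer probe sets 1450537_at of Mid2 and 1438239_at of Mid1 turned to -0.18 and -0.29 after quantile normalization. Trim67 ranged from -0.61 to 2.42 and Trim36 from -0.025 to 1.27. No adjusted p of the 6 genes passed 0.05 under any of these, the lowest being 0.616, for Trim9 with array weights.

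**Figure D4:**
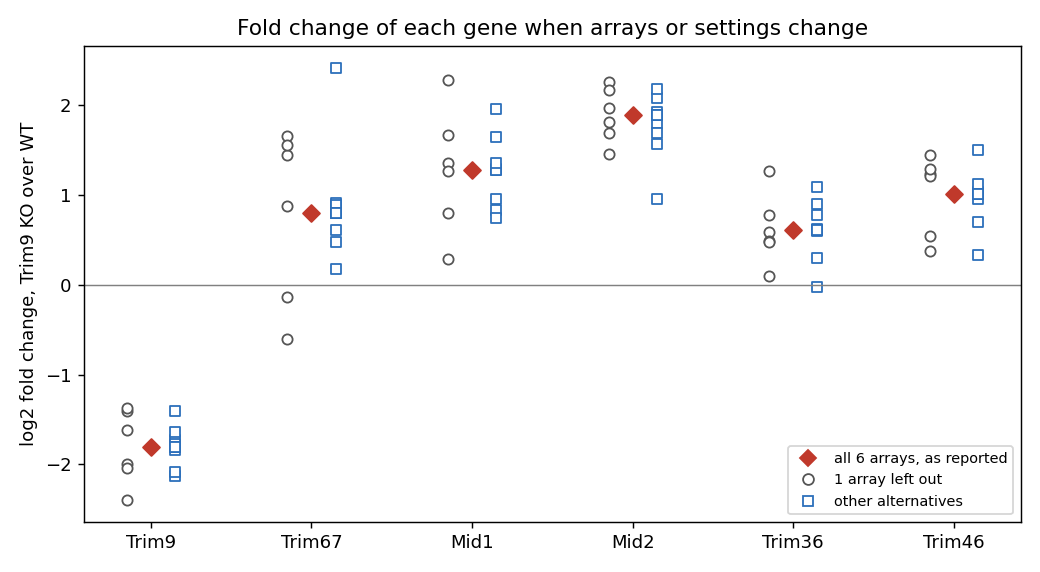
Change in log2 signal as KO over WT (y axis) of the brightest probe set of each class I gene (x axis): red diamonds use all 6 arrays as reported, grey circles leave out 1 array each, and blue squares are the other alternatives (scaling, pseudocount, filter, variance model, mean of probe sets, sex). Trim9 stays below 0 and Mid1, Mid2 and Trim46 above it, whereas Trim67 and Trim36 cross 0.

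Genes whose signal ran most like that of each member were sought over the 6 arrays, among genes brighter than the median of all probe sets. Each array's median was subtracted, each gene was centred, and likeness was the root-mean-square difference in log2 signal, where a lower value is more alike. Nearest to Trim9 were Clk3, a kinase of splicing factors (0.55), the BBSome subunit Ttc8 (0.55) and the transcription factor Sox13 (0.59), against a median of 1.57 over all such genes. Like Trim9, these genes were highest on WT replicate 1 once array medians were subtracted. Nearest to Mid2 were the Golgi tethering subunit Cog8 (0.16) and Pacsin3 (0.20), with Trim36 the ESCRT-III subunit Chmp5 (0.080) and the retromer subunit Vps29 (0.11), and with Trim46 the RNA-binding protein Stau1 (0.19) and Il1rapl1 (0.23). Nearest to Trim67 were Pkd1 (0.18) and Tnnt1 (0.28), and to Mid1 Irf4 (0.32) and Defb45 (0.35). With 6 arrays and over 12055 genes searched, close matches are found for any profile, and these names are a description only.

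The partners of the class were examined as 5 lists with 32 measured genes, and 0 passed limma's adjusted threshold in either direction, as for all probe sets; 0 also had an unadjusted p under 0.05. Of 11 netrins and netrin receptors, 7 had a higher and 4 a lower mean in Trim9 KO (median log2 fold change 0.42, against 0.14 over all genes). That median was 0.23 to 0.72 when an array was left out. With equal array medians it was 0.098, where the median of all probe sets moved as well, from 0.18 to -0.14. Over all 18193 genes, 10037 had a higher and 8156 a lower mean. Dcc, the netrin-1 receptor that TRIM9 binds, read 993, 4344 and 6659 in Trim9 KO and 5439, 2260 and 2199 in WT, a log2 fold change of 0.032 with a 95% interval of -2.27 to 2.33. The lowest and the highest of the 6 values were both in Trim9 KO. The repulsive netrin receptors Unc5b and Unc5c had the largest limma statistics of the list, at 1.95 (standard error 1.17) for Unc5b and 1.73 (standard error 1.09) for Unc5c, the second being 0.70 without WT replicate 2. For Unc5c every KO array exceeded every WT array, and so it did for the netrin-binding receptor Dscam (1.20), which is named after its values were seen; 5.35% of all genes had such a pattern.

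Of 7 measured actin and exocytosis partners of TRIM9, 6 were lower on average and 1 was higher (median -0.95, and -1.21 to -0.078 when an array was left out). Over all genes, 8156 of 18193 had a lower mean and the median was 0.14. Vasp, the filopodial actin regulator that TRIM9 ubiquitinates, read 568, 475 and 372 in Trim9 KO and 132, 1147 and 827 in WT (log2 fold change -0.13). The KO arrays lay between the WT arrays. Snap25, the SNARE protein to which TRIM9 binds, read 34249, 19301 and 143740 in Trim9 KO and 131412, 109069 and 108389 in WT (log2 fold change -1.34, standard error 1.03). Here 2 KO arrays were below all WT arrays and 1 was above them. The Ena/VASP family member Evl had the largest difference of the list, -3.27 with a standard error of 1.70, and was at 35.3 on Trim9 KO replicate 1, without which it was -1.45.

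Partners of the other members varied around 0, where 8156 of all 18193 genes had a lower mean in Trim9 KO. Of 6 genes of the MID1 and alpha4 axis, 5 were lower on average and 1 was higher (median -0.23, and -0.44 to 0.13 when an array was left out), with Mtor at -1.14 and the PP2A scaffold Ppp2r1a at 0.93. Ppp2r1a was at 0.44 without Trim9 KO replicate 1 and at 0.11 without WT replicate 3. The PP2A catalytic subunit Ppp2ca, named here as the target of MID1 after its value was seen, was at -0.019, with an interval of -2.00 to 1.96. Of 5 measured genes of the axon initial segment, where TRIM46 acts, 2 were higher and 3 lower (median -0.0050, and -0.72 to 0.39 when an array was left out), with Nfasc at -1.10 and the sodium channel Scn8a at -1.04. Scn8a was at 148 on Trim9 KO replicate 1 and between 2119 and 3457 on the other 5 arrays, and without that array Scn8a was at 0.39, Nfasc at -0.0054 and Mtor at -0.34. Of 3 measured COS-box TRIM genes outside class I, 2 were higher and 1 lower (median 0.019, and -0.52 to 0.69 when an array was left out). The muscle ligase Trim63 was at 2.07 (standard error 1.25) and Trim54 at -0.42, both from dim signals, with Trim63 at 1079 on Trim9 KO replicate 1 and at 57.6 or below on the other 5 arrays (0.66 without that array). Trim54 turned to 0.69 without WT replicate 2 and was at -1.05 without WT replicate 3.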

How the data were processed

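Retinal RNA of 3 Trim9 KO and 3 WT mice was measured on 6 arrays. Per the labels, the authors made the linear intensities used here with MAS5 (version not given in the sources used here), whereas the methods of the study state RMA; the linear scale and unequal medians of the values are those of MAS5. On each array the mean after 2% of probe sets at either end were left out was the same. Scanner files were not used here. Of 45101 probe sets, 64 controls were left out. Of the others, 34945 named 1 gene, 932 several and 9160 none, and 99.4% of the first were matched to RefSeq by gene number. Values were taken as log2(intensity + 16) and fitted with limma 3.58.1 in R 4.3.3 (lmFit and eBayes, no block). The fit was run on simulated data, where recovery of changes was required only at a spread well below that of these arrays. That check does not show the power at the measured spread. A gene was read by its probe set with the highest mean. Exact permutation tests were two-sided. Genes of each list were named by the 2 largest limma statistics, with Dcc, Vasp and Snap25 in any case, and the 3 nearest genes of Trim9 and the 2 nearest of each other member were named. Members and lists were chosen with earlier results of these data known. Figures used Python 3.11.15, matplotlib 3.10.9 and pandas 2.3.3. The number of arrays limits the precision. No columns were without a sample.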

Additional observations from a re-analysis of the deposited data

How the results depend on the processing

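Of 95 fold changes recomputed for the 6 genes, 92 kept their direction and their side of the threshold, and limma called 0 features at an adjusted p of 0.05 under each of the 16 alternatives. The 3 that turned were Trim67 when either Trim9 KO replicate 1 (-0.14) or WT replicate 1 (-0.61) was left out, and Trim36 without the 2 arrays with high Xist (-0.025); the cause was not tested. When 1 array was left out, the log2 fold change was -2.40 to -1.38 for Trim9, -0.61 to 1.66 for Trim67, 0.28 to 2.28 for Mid1, 1.45 to 2.26 for Mid2, 0.10 to 1.27 for Trim36 and 0.37 to 1.44 for Trim46. An unadjusted p under 0.05 in limma arose in 4 of the 95 (Trim9 with array weights, -2.09, and without Trim9 KO replicate 1, -2.40; Mid2 with a pseudocount of 64, 1.80, and among probe sets above the median, 1.89). Mid1 had no value under that filter, because its probe sets lie below the median. For the other genes that filter could not alter the fold change, nor could the other variance model or the block by replicate number. The mean of probe sets was likewise fixed for Trim67 and Trim46, each read by 1 probe set. Those directions were set in advance and add nothing to the count of 92. Apart from that mean, the counts are for the brightest probe set of each gene. With the replicate number as a block the fold changes were as before (Trim9 -1.81, Mid2 1.89) and 864 probe sets had an unadjusted p under 0.05, against 1296 without it. The numbers were not taken as pairs, since the deviations of KO and WT arrays of the same number correlated at -0.23, -0.081 and 0.033. Sex did match by number, with high Xist on replicate 3 of both genotypes only, so that these correlations do not settle whether the arrays were paired. The MAS5 scaling leaves array medians unequal, and probe sets of Mid1 and the second of Mid2 lie where the pseudocount weighs most.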
